A study of Mus musculus with 8 samples.

Results

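The miR-15/16 family was followed in small RNA libraries of mouse spleen CD8+ T cells. Its 5 members, mmu-miR-15a-5p, mmu-miR-15b-5p, mmu-miR-16-5p, mmu-miR-195a-5p and mmu-miR-497a-5p (mmu for mouse, dropped below), were taken by name and are 5 of the 1978 distinct mature names in the deposited table. They fill 6 rows of it, since miR-16-5p has a row for each of its hairpins. The rule for choosing members used no measured value, but it was set with earlier results of these data known. The 8 libraries form 4 groups of 2, named by genotype (WT or mCre) and by sorted subset (TN or MP). Cells were sorted on CD8, CD4, CD44 and CD122. The design text writes VM where the sample names write MP; TN is usually read as true naive and VM as virtual memory, a memory-like state reached without foreign antigen, and the labels spell out neither. The series title links the set to miR-29 and Cre, a recombinase that removes marked DNA. The promoter driving Cre, the deleted allele, the strain and the age of each mouse are not stated in these labels; adult and neonatal spleens share a single protocol text. The labels also do not say whether the libraries of a group came from different mice, and a p-value here therefore reflects only library-to-library spread, which may be technical.

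Members of this family share a seed, the bases near the 5′ end that pair with target mRNAs, and so are thought to act on overlapping targets. Known targets include Bcl2, a survival gene, and cell cycle genes such as cyclin D and cyclin E genes and Cdk6. Loss of the miR-15a and miR-16-1 cluster is frequent in chronic lymphocytic leukaemia, and in mouse T cells the family is known as a brake on cell cycle entry and on the formation of memory cells.

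The mature sequences, from RefSeq on GRCm38.p6, are shown because the shared seed defines the family and the near-identity of its members limits how reads can be assigned. Capitals mark the seed, bases 2 to 8.
mmu-miR-15a-5p: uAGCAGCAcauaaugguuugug
mmu-miR-15b-5p: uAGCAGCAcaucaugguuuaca
mmu-miR-16-5p: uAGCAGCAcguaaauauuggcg
mmu-miR-195a-5p: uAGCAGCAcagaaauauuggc
mmu-miR-497a-5p: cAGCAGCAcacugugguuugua
All 5 matched by name and all 5 hold the same 7 seed bases. Compared base by base from the 5′ end, miR-15a-5p and miR-15b-5p are identical at 18 of 22 positions. miR-16-5p and miR-195a-5p are identical at 19 of 21, the closest pair, and miR-16-5p and miR-497a-5p at 11 of 22, the most distant.

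The members come from 3 pairs of neighbouring hairpins (GRCm38, GENCODE M21). Mir15a (chromosome 14, 61632027 to 61632110, minus strand) lies in an intron of Dleu2, a long noncoding RNA gene, and Mir16-1 (61631880 to 61631972) overlaps an exon of the same gene. Mir15b (chromosome 3, 69009772 to 69009835, plus strand) and Mir16-2 (69009902 to 69009996) both lie in an intron of Smc4, which encodes a condensin subunit. Mir195a (chromosome 11, 70235042 to 70235135, plus strand) overlaps no other annotated gene, and Mir497 (70234717 to 70234800, plus strand) lies opposite Mir497b. Mature miR-16-5p is the same whichever hairpin it comes from, so its level is a sum over chromosomes 3 and 14.

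The deposited values carry a trace of reads that fit several members. The fractional parts of the miR-16-5p rows and of miR-195a-5p were equal, to within 0.011, in 8 of 8 libraries, 7 of them with a value that was not whole. The fractional parts of miR-15a-5p and miR-15b-5p also matched in 8 of 8 libraries, 3 of them not whole. Against this, miR-16-5p and miR-15b-5p matched in 1 library of 8. Equal fractions arise when a read that fits several rows is divided between them. The counting step is not recorded, so values of the scarce members miR-15a-5p and miR-195a-5p are uncertain to that extent.

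The libraries held 1936600 to 5230975 counts. 3 measures set the same 3 libraries apart from the other 5, namely WT TN replicate 2 and both mCre MP libraries. Their let-7 5p forms took 59.5% to 68.7% of the counts against 42.6% to 51.2% elsewhere. Their miR-29 forms, the miRNA named in the series title, took 0.0863% to 0.147% against 0.189% to 1.62%, so that WT TN replicate 2, with the lowest miR-29 of all 8, and mCre TN replicate 2, with the highest, go against their labels if mCre marks a loss of miR-29, which the labels do not spell out. The mean GC content of the counted miRNAs was 39.2% to 39.5% in these 3 and 40.2% to 40.7% in the others. Every contrast with TN below rests on these replicate 2 libraries as they were labelled.

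**Figure D1:**
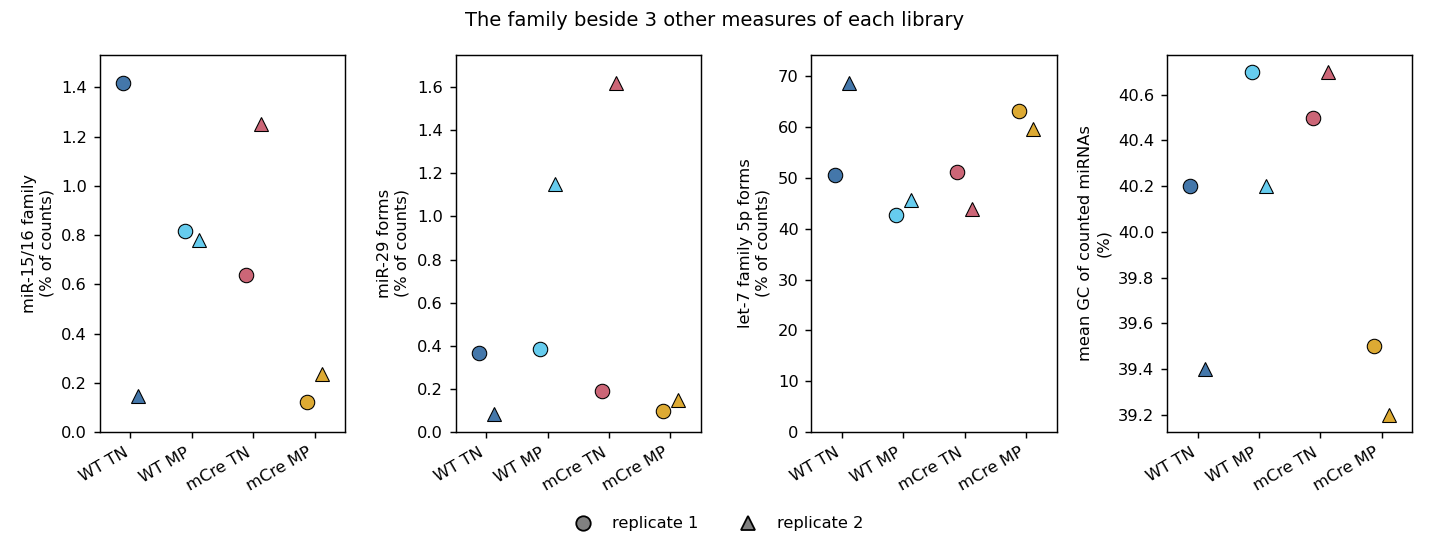
Percent of counts taken by the miR-15/16 family, the miR-29 forms and the let-7 5p forms, and mean GC content of the counted miRNAs (percent, axis not from 0), by group, with 1 point per library. WT TN replicate 2 and both mCre MP libraries are the lowest 3 for the family (0.1245% to 0.2354%), for miR-29 and for GC, and the highest 3 for let-7.

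The sorted cells carried the miRNAs of lymphocytes. miR-150-5p, abundant in mature lymphocytes, ran from 38400 to 152000 CPM (counts scaled to a common library total, here without further factors), and the summed level of 5 lymphocyte miRNAs was lowest in mCre MP (40600 and 64300 CPM) and in WT TN replicate 2 (47500 CPM), against 81500 to 179000 CPM in the other 5 libraries. Erythroid cells are rich in miR-16, so their markers were read too. The defining erythroid miRNAs were at or near 0, with miR-451a at a median of 2.52 CPM and miR-144-3p at 0 to 0.342 CPM, while the summed erythroid list, nearly all miR-486, held 180 to 273 CPM in those 3 libraries and 81.6 to 157 CPM in the rest. All 5 erythroid miRNAs had counts. The 2 myeloid miRNAs summed to 1.40 to 13.7 CPM and the 7 endothelial and stromal miRNAs to 22.2 to 112 CPM. The part of these miRNAs in the differences below was not tested.

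The family took 0.6765% ± 0.492 of all counts (SD, n = 8 libraries), with an 11.41-fold range. Its share was 1.42% in WT TN replicate 1 (95% Wilson interval 1.407% to 1.434%) and 0.1462% in replicate 2 (0.1409% to 0.1517%). In WT MP it was 0.8153% and 0.7825%, in mCre TN 0.6383% and 1.25%, and in mCre MP 0.1245% (0.1199% to 0.1293%) and 0.2354% (0.2300% to 0.2408%). The 3 low libraries thus lay below the other 5 by more than counting error, although they were sequenced to between 1936600 and 3061370 counts. A lower share can reflect fewer cells that make a miRNA or less of it per cell, and bulk libraries cannot tell these apart. A share also depends on the other miRNAs counted. The let-7 5p forms took 59.5% to 68.7% of counts in the 3 low libraries and 42.6% to 51.2% in the other 5. Their part in the family's share was not tested.

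Within the family the abundant members kept nearly the same shares and miR-15a-5p did not. miR-16-5p gave 82.2% ± 2.52 of the family's counts (range 79.5% to 87.5%) and miR-15b-5p 16.6% ± 2.31 (12.1% to 19.3%; SD, n = 8). miR-15a-5p gave 0.889% ± 0.907, from 0.0707% in WT TN replicate 2 to 2.85% in mCre TN replicate 2, miR-195a-5p 0.294% ± 0.0885 and miR-497a-5p at most 0.0112% in any library. The members are 21 or 22 bases long, so their counts compare without a correction for length.

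mmu-miR-16-5p, the member with the best known cell cycle targets, ranked between 17 and 48 by count among all miRNAs of a library. Levels from here on are CPM after TMM scaling, a correction for library makeup. In WT TN miR-16-5p was 9502 and 1395 CPM, in WT MP 5820 and 6649, in mCre TN 4472 and 10250, and in mCre MP 1170 and 2335. The highest library, mCre TN replicate 2, held 8.756 times the lowest, mCre MP replicate 1. Group means in order were 7360 ± 4085 in mCre TN, 6235 ± 586.6 in WT MP, 5448 ± 5733 in WT TN and 1753 ± 823.3 in mCre MP (SD, n = 2 each). The first 3 of these differed by less than the spread of either TN group.

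mmu-miR-15b-5p, made from the Smc4 intron, ran closely with it over the libraries. It was 1916 and 192.6 CPM in WT TN, 1403 and 1564 in WT MP, 1025 and 2012 in mCre TN, and 226.1 and 445.2 in mCre MP. WT TN replicate 2 was the lowest library here, below both mCre MP libraries. The WT MP libraries lay close together, at 1484 ± 113.6 CPM, while the TN groups spread widely, at 1054 ± 1219 in WT and 1519 ± 698.0 in mCre (SD, n = 2 each).

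mmu-miR-15a-5p, from the Dleu2 intron, was scarce and the most variable member. It was 53.6 CPM (200 counts) and 1.13 CPM (2 counts) in WT TN, 21.6 and 132.5 in WT MP, 34.5 and 360.5 in mCre TN (1040 counts in the latter), and 10.1 and 14.4 in mCre MP. Its range over the libraries, 7.70 on the log2 scale, was wider than that of 99.7% of the 382 miRNAs tested, against a median of 2.87 over all of them. miR-15b-5p (3.38), miR-16-5p (3.13) and miR-195a-5p (2.67) lay near that median.

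mmu-miR-195a-5p, the member from chromosome 11, stayed between 4.77 and 33.6 CPM. It was 33.5 and 6.20 CPM in WT TN, 14.1 and 14.7 in WT MP, 14.9 and 33.6 in mCre TN, and 4.77 and 12.1 in mCre MP. Its neighbour miR-497a-5p had 3, 2 and 1 counts in WT MP replicate 1, mCre TN replicate 1 and WT MP replicate 2, and 0 in the other 5. At 0 counts, up to 3 counts remain possible, or 0.980 to 1.55 CPM before scaling. miR-497a-5p did not pass the filter on low counts, so 4 of the 5 members were tested.

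**Figure D2:**
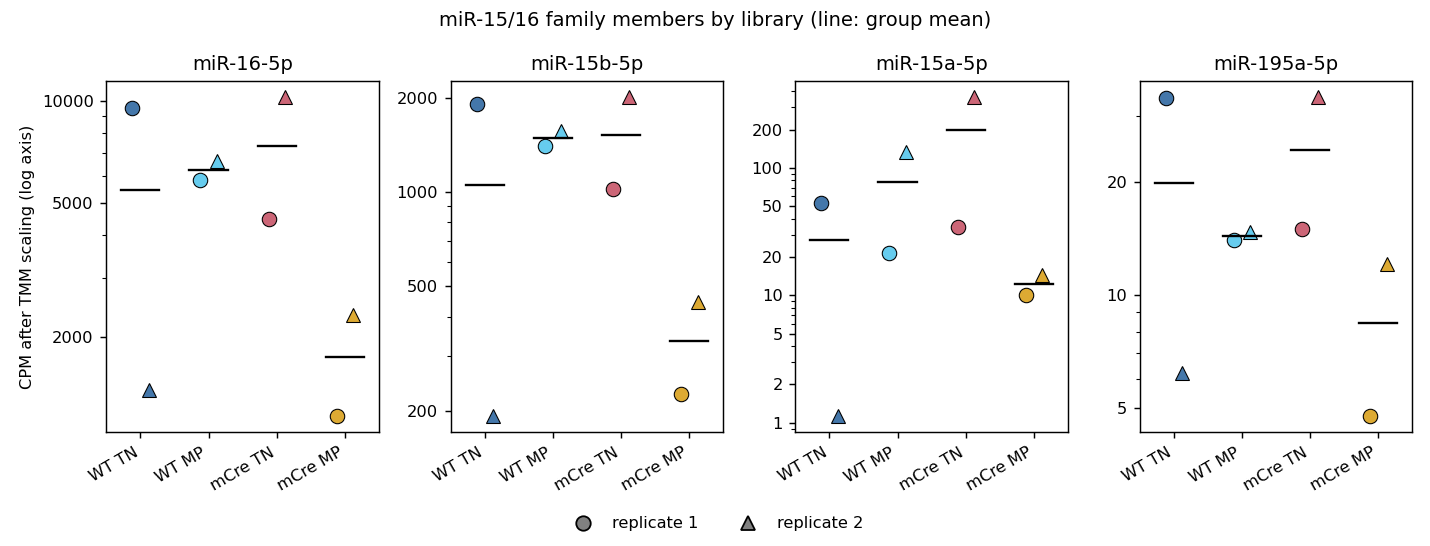
CPM after TMM scaling (log axis) of the 4 tested members in each group, with 1 point per library and a line at the group mean. Both mCre MP libraries lie below both WT MP libraries for each member, and WT TN replicate 2 lies with them, with 1395 CPM of miR-16-5p against 9502 in replicate 1.

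The effect of the mCre genotype was read first in MP cells, a contrast that uses no TN library. All 4 tested members were below the WT MP libraries in both mCre MP libraries. miR-15b-5p was 335.7 ± 154.9 CPM in mCre against 1484 ± 113.6 in WT, and miR-16-5p 1753 ± 823.3 against 6235 ± 586.6. miR-15a-5p was 12.2 ± 3.08 against 77.0 ± 78.4, and miR-195a-5p 8.42 ± 5.17 against 14.4 ± 0.471 (SD, n = 2 each). In this contrast 143 of the 382 miRNAs (37.4%) were without overlap and lower in mCre, so separation of this kind was common.

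None of these differences passed. In edgeR's quasi-likelihood fit, with p adjusted by Benjamini-Hochberg over 382 miRNAs, the log2 fold change was -2.14 ± 0.995 for miR-15b-5p and -1.83 ± 0.887 for miR-16-5p (SE; edgeR adjusted p = 0.411 for both). It was -2.65 ± 1.62 for miR-15a-5p (edgeR adjusted p = 0.462) and -0.758 ± 0.923 for miR-195a-5p (0.713). edgeR called 0 of 382 miRNAs (0%), with 41 (10.7%) below an unadjusted p of 0.05 and no member among them; DESeq2 called 0. The members' median was -1.99, against -0.23 over all tested miRNAs. For mCre against WT in TN it was 0.48, against 0.0183. The members ran alike and may share reads, so they are not separate readings.

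The call changed when both TN replicate 2 libraries were left out, which are not in the contrast but share its estimate of spread. Each TN group then held 1 library, and the number of miRNAs tested also changed. The cause of the change in call was not tested. Without both TN replicate 2 libraries, miR-15b-5p was -2.15 ± 0.465 (edgeR adjusted p = 0.0153), miR-16-5p -1.84 ± 0.442 (0.0153) and miR-15a-5p -2.63 ± 0.701 (0.0221), and 63 of 433 miRNAs (14.5%) were called. The fold changes were nearly the same as with all libraries, and their errors were smaller. miR-15a-5p also rested on 1 library and was -0.824 without WT MP replicate 2. With the GC trend of each library removed, an alternative chosen after seeing the data, miR-15b-5p was -1.61, miR-16-5p -1.46, miR-15a-5p -2.06 and miR-195a-5p -0.309.

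MP cells were then set against TN cells within mCre. Again all 4 tested members were lower in both MP libraries than in both TN libraries, a pattern shown by 136 of 382 miRNAs (35.6%). miR-15a-5p was furthest from 0, at -4.00 ± 1.71 on the log2 scale, then miR-15b-5p at -2.18 ± 0.996, miR-16-5p at -2.07 ± 0.894 and miR-195a-5p at -1.51 ± 0.931 (SE). Unadjusted p was 0.0478 for miR-15a-5p and 0.0495 for miR-16-5p in edgeR's model over all miRNAs, in a contrast where 82 of 382 (21.5%) fell under 0.05.

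After adjustment no member passed in mCre (edgeR adjusted p from 0.229 to 0.350), and edgeR called 0 of 382 (0%). DESeq2 called 44 (11.5%), miR-15a-5p among them (-4.07 ± 1.26, DESeq2 adjusted p = 0.0175). edgeR without the low count filter also called miR-15a-5p (-4.14, adjusted p = 0.0446; 24 of 877 miRNAs, 2.74%). edgeR called miR-15b-5p and miR-16-5p without WT TN replicate 1 (adjusted p = 0.0346 and 0.0357; 56 of 435 miRNAs, 12.9%) and without WT TN replicate 2 (0.0487 and 0.0492; 41 of 437, 9.38%). Neither of these libraries is part of the contrast itself.

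Within WT the subset difference had no common direction. miR-15a-5p was at 1.47 ± 1.54, miR-15b-5p at 0.492 ± 0.956, miR-16-5p at 0.194 ± 0.860 and miR-195a-5p at -0.480 ± 0.903 as log2 values (SE; edgeR adjusted p from 0.802 to 0.942). The WT TN libraries lay on both sides of the WT MP libraries for miR-16-5p, miR-15b-5p and miR-195a-5p. edgeR called 0 of 382 (0%), with 31 (8.12%) below an unadjusted p of 0.05, and DESeq2 called 12, no member among them. The sign rested on WT TN replicate 2: without it miR-15b-5p was -0.461 and miR-16-5p -0.700.

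The difference between the subset effects of mCre and WT was tested directly. It was -5.47 ± 2.28 for miR-15a-5p, -2.67 ± 1.37 for miR-15b-5p, -2.26 ± 1.23 for miR-16-5p and -1.03 ± 1.29 for miR-195a-5p as log2 values (SE; edgeR adjusted p from 0.333 to 0.722). edgeR called 0 of 382 (0%), with 54 (14.1%) below an unadjusted p of 0.05, miR-15a-5p among them. DESeq2 called 16 (4.19%), with miR-15a-5p just past the threshold (DESeq2 adjusted p = 0.0489). Without WT TN replicate 1, which leaves the low replicate 2 as the only WT TN library, edgeR called miR-15b-5p (-5.25, adjusted p = 0.0176) and miR-16-5p (-4.35, 0.0225) among 68 of 435 (15.6%). In that setting the lone library is assumed to vary like the other groups.

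Over both genotypes, all 4 tested members had a lower fitted level in MP than in TN, as did 193 of 382 miRNAs (50.5%). The log2 fold change was -0.938 ± 0.765 for miR-16-5p, -0.841 ± 0.884 for miR-15b-5p, -1.23 ± 1.96 for miR-15a-5p and -0.987 ± 0.650 for miR-195a-5p (SE; edgeR adjusted p from 0.639 to 0.835). The 4 MP and 4 TN libraries overlapped for each of them, and 0 members were among the 9 of 382 miRNAs (2.36%) that passed. A difference of the family between the subsets was not detectable with these 8 libraries. The members' median was -0.962, against -0.0416 over all tested miRNAs. It was 0.343 in WT alone (all tested 0.0472) and -2.12 in mCre alone (all tested -0.181).

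The genotype was last compared in TN and over both subsets. In TN the members were above 0, at 2.83 ± 1.61 for miR-15a-5p, 0.526 ± 0.956 for miR-15b-5p, 0.434 ± 0.861 for miR-16-5p and 0.269 ± 0.898 for miR-195a-5p (SE; edgeR adjusted p from 0.957 to 0.967). edgeR called 0 of 382 (0%), with 12 (3.14%) below an unadjusted p of 0.05, and DESeq2 0. Without the library labelled WT TN replicate 2, miR-15b-5p was -0.364, miR-16-5p -0.402 and miR-195a-5p -0.501. Over both subsets miR-16-5p was at -0.698 ± 0.763, miR-15b-5p at -0.808 ± 0.884, miR-195a-5p at -0.233 ± 0.645 and miR-15a-5p at 0.128 ± 2.00 (SE; edgeR adjusted p = 0.992 for all 4). Here edgeR called 0 (0%), with 5 (1.31%) below an unadjusted p of 0.05, and DESeq2 0. Without both TN replicate 2 libraries the last comparison gave -1.74 for miR-15b-5p and -1.59 for miR-16-5p (edgeR adjusted p = 0.0328 for both; 27 of 433 called, 6.24%).

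**Figure D3:**
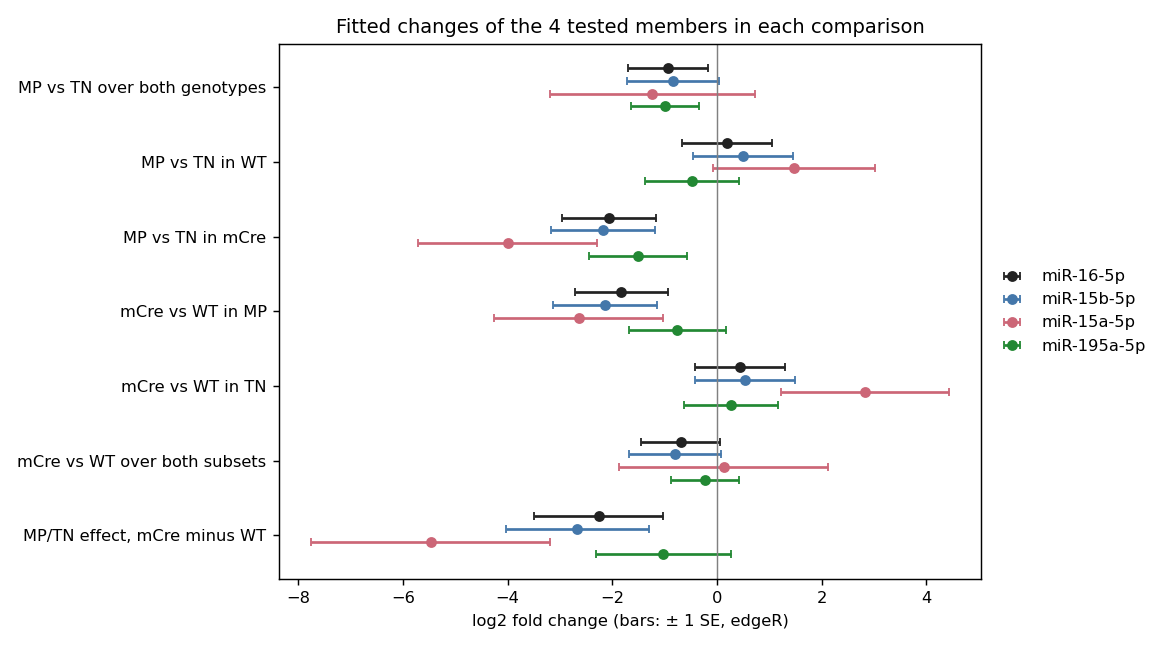
Fitted log2 fold changes with bars of 1 SE for the 4 tested members in the 7 comparisons. All 4 members lie below 0 in MP against TN in mCre and over both genotypes, in mCre against WT in MP and in the difference of subset effects, where miR-15a-5p is at -5.47, and miR-15a-5p has the widest bar in each comparison.

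Each hairpin gives a second mature form from its other arm, usually the passenger strand that is discarded, and these partner arms tell the hairpins of miR-16 apart. Hairpins Mir15b and Mir16-1 are shown 5′ to 3′ with both mature arms in capitals, because their partner arms are set side by side below (RefSeq, GRCm38.p6).
Mir15b (chr3:69009772-69009835, plus strand): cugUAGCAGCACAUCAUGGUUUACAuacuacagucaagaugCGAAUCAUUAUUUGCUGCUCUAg
Mir16-1 (chr14:61631880-61631972, minus strand): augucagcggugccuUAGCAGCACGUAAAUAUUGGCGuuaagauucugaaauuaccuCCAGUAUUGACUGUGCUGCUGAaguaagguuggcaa
Of 6 partner arms in the table, 5 had counts and 4 passed the filter. miR-15b-3p was the leading one, with 9494 counts over the 8 libraries against 6 for miR-15a-3p. miR-16-1-3p held 1466 counts and miR-16-2-3p 557, so the Dleu2 hairpin gave more of the miR-16 partner arms although the Smc4 locus gave more of the miR-15 forms. miR-497a-3p had 0 counts.

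miR-15b-3p was 325.9 and 145.9 CPM in WT TN, 553.1 and 438.2 in WT MP, 493.6 and 260.6 in mCre TN, and 77.3 and 192.4 in mCre MP. Its fold change for mCre against WT in MP was -1.88 ± 0.689 as a log2 value (SE; unadjusted p = 0.0263 and adjusted p = 0.411 in edgeR), close to that of its guide strand. Without both TN replicate 2 libraries it passed (-1.88 ± 0.509, edgeR adjusted p = 0.0236). miR-16-1-3p varied little, with 71.5 and 29.9 CPM in WT TN, 70.5 and 57.5 in WT MP, 57.3 and 35.7 in mCre TN, and 47.7 and 53.0 in mCre MP. Its fold change in the same contrast was -0.347 ± 0.571 (edgeR adjusted p = 0.787), against -1.83 ± 0.887 for miR-16-5p, which also comes from Mir16-2. miR-16-2-3p was at -1.35 ± 1.15.

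miR-195a-3p was highest in the 3 libraries where miR-195a-5p was lowest. It was 12.2 and 13.6 CPM in mCre MP and 18.6 in WT TN replicate 2, and between 1.39 and 7.90 CPM in the other 5. It thus was above miR-195a-5p in each of the 3 libraries where the family was low, with 23 counts against 9, 35 against 31 and 33 against 11. Some miR-195a-5p counts may be reads divided with miR-16-5p, which was also low in these libraries, and their part was not tested. In mCre TN replicate 2 the order was turned, with 4 counts of miR-195a-3p against 97 of miR-195a-5p. Its fold change for mCre against WT in MP was 0.896 ± 1.00 (edgeR adjusted p = 0.693), without overlap and higher in mCre as for 104 of 382 miRNAs (27.2%).

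Ratios of forms within a library do not depend on how libraries are scaled. Of 9 ratios considered, 3 had at least 10 counts of both forms in every library and were tested. The log2 ratio of miR-16-5p to miR-15b-5p was 2.23 ± 0.180 over the 4 MP libraries and 2.41 ± 0.313 over the 4 TN libraries (SD; exact permutation test, two-sided, p = 0.457, adjusted p = 0.994 over 6 tests). It lay between 2.05 and 2.86 in all 8 libraries, so both members kept nearly the same proportion while their levels ranged widely. The log2 ratio of miR-15b-5p to miR-15b-3p was 1.48 ± 0.272 in MP and 1.74 ± 1.21 in TN (exact permutation p = 0.714). Of miR-16-5p to miR-16-1-3p it was 5.83 ± 0.990 in MP and 6.76 ± 1.12 in TN (exact permutation p = 0.229).

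Between the genotypes the same ratios differed by -0.0176, 0.157 and -0.322 (mCre minus WT, exact permutation p from 0.714 to 1). No adjusted p was below 0.994, and the smallest p that 70 splits of 4 against 4 allow is 0.0286. In counts, miR-16-5p was 24.6, 44.1 and 46.7 times miR-16-1-3p in mCre MP replicates 1 and 2 and WT TN replicate 2, and 78.0 to 287.1 times in the other 5 libraries. The ratio of miR-15b-5p to miR-15a-5p was not tested because of the 2 counts of miR-15a-5p; it ran from 5.58 in mCre TN replicate 2 to 171.0 in WT TN replicate 2.

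**Figure D4:**
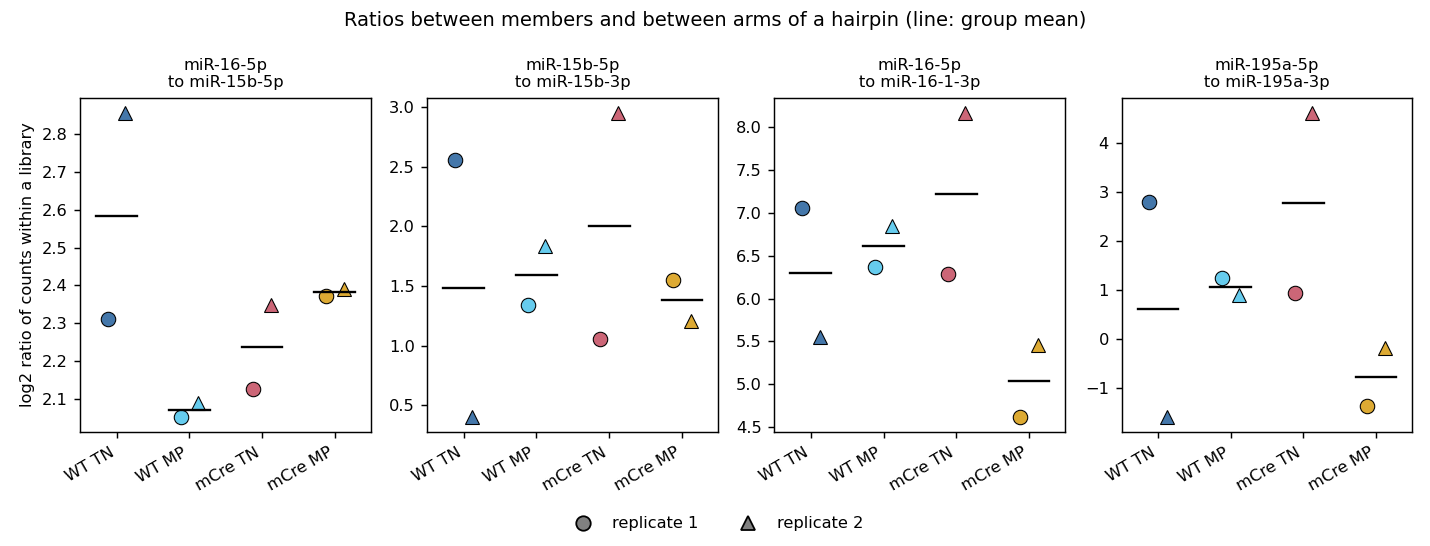
Log2 ratios of counts within each library, by group, with a line at the group mean (axes not from 0). They are miR-16-5p to miR-15b-5p and 3 guide forms to a partner arm. miR-16-5p also comes from Mir16-2, and its ratio is to the partner arm of Mir16-1 only. miR-16-5p to miR-15b-5p spans 2.05 to 2.86, while miR-16-5p to miR-16-1-3p and miR-195a-5p to miR-195a-3p are lowest in WT TN replicate 2 and both mCre MP libraries.

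Other miRNAs carry the same seed or most of it. Of the RefSeq mature names, 10 hold all 7 bases at positions 2 to 8, the 5 members among them, and 2 more, miR-103-3p and miR-107-3p, hold them 1 base earlier. Those sequences are given with that of miR-503-5p, which shares 6 of the 7 bases; capitals mark the shared bases.
miR-103-3p: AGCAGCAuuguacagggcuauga
miR-107-3p: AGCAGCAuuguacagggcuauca
miR-322-5p: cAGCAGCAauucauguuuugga
miR-503-5p: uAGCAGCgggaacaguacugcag
miR-195b, miR-6342, miR-6353 and miR-6419, which also hold the seed, had 0 counts. miR-103-3p, linked to metabolic control, was the only abundant relative, and Mir322 and Mir503 are neighbours on chromosome X (53054255 to 53054349 and 53053984 to 53054054, minus strand) that promote cell cycle exit in other tissues.

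A list of 12 relatives and their partner arms, chosen by name, had 7 with counts and 5 tested. None of the 5 passed in edgeR in MP against TN over both genotypes, where 9 of 382 miRNAs (2.36%) did. All 5 had a fitted value below 0, as did 193 of 382 miRNAs (50.5%). The 5 include partner arms and near-identical sequences, so they are not separate readings of the seed. miR-503-5p was 10.4, 5.63, 13.8 and 13.5 CPM in the 4 TN libraries and 1.62, 1.91, 4.24 and 1.17 CPM in the 4 MP libraries. The subsets did not overlap for it, as for 17 of 382 miRNAs (4.45%) that were lower in MP. Its log2 fold change was -2.26 ± 0.621 (SE; unadjusted p = 0.00561 and adjusted p = 0.123 in edgeR, where 50 of 382, or 13.1%, had an unadjusted p under 0.05). DESeq2 called it (-2.38 ± 0.639, DESeq2 adjusted p = 0.00428), among 28 of 382 miRNAs called by DESeq2 in this contrast.

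miR-322-3p, the partner arm of miR-322-5p, also had no overlap, with 16.9 to 25.9 CPM in TN and 0 to 8.96 CPM in MP (-2.17 ± 0.861, edgeR adjusted p = 0.316; DESeq2 adjusted p = 0.0353). miR-322-5p itself had 38 counts in 3 TN libraries and 0 in the 4 MP libraries. Over both genotypes miR-503-5p and miR-322-3p thus did not overlap between the subsets, while the tested members did; within mCre the tested members did not overlap either. miR-503-5p rested on 24 counts in MP and 171 in TN.

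miR-103-3p and miR-107-3p followed the libraries as the members did. miR-103-3p was 3009 and 581.3 CPM in WT TN, 1176 and 1809 in WT MP, 1313 and 2699 in mCre TN, and 337.9 and 810.6 in mCre MP. Its fold change for mCre against WT in MP was -1.38 ± 0.863 and that of miR-107-3p -2.74 ± 1.31 (SE; edgeR adjusted p = 0.465 and 0.411). Within mCre, MP against TN gave -1.80 ± 0.874 and -3.72 ± 1.35 (edgeR adjusted p = 0.241 and 0.214). DESeq2 called miR-107-3p there (DESeq2 adjusted p = 0.0119), among 44 of 382 miRNAs (11.5%). The 2 differ by a single base near the 3′ end, and their reads may be divided as well.

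Over the 8 libraries, members were described by how alike their log2 CPM ran. miR-15b-5p and miR-16-5p had a Pearson correlation of 0.989 (Spearman 0.976), and 0.983 without the 2 libraries farthest from the median. Leaving out 2 does not remove all the libraries that were low for the family. miR-15a-5p was less close to both, at 0.867 and 0.851. Among all tested miRNAs the most alike to miR-16-5p were miR-93-5p (0.989), miR-15b-5p, miR-500-3p (0.987), miR-324-3p (0.981) and miR-872-5p (0.978). For miR-15b-5p they were miR-16-5p, miR-324-3p (0.986), miR-652-3p (0.984), miR-93-5p (0.983) and miR-141-3p (0.982).

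miR-15a-5p had other close partners. They were miR-363-3p (0.946), miR-181c-5p (0.932, with a Spearman correlation of 1), miR-29c-3p (0.922), miR-32-5p (0.919) and miR-652-3p (0.917). miR-195a-5p ran most like miR-466d-3p (0.988), miR-466m-3p (0.981), miR-467e-3p (0.969), miR-103-3p (0.969) and miR-669a-3-3p (0.958). All these values share the same 8 libraries, 3 of them low for the family, and are a description only. miR-15a-5p and the miR-29 forms were also both highest in mCre TN replicate 2 and then WT MP replicate 2, at 360.5 and 132.5 CPM of miR-15a-5p and 1.62% and 1.15% of counts for miR-29.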

How the data were processed

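The authors deposited expected counts per mature miRNA row, in 2128 rows; per the submitters' processing notes the build was mm10, and neither the aligner nor the counter is given in the sources used here. Rows of a name were summed and rounded. filterByExpr in edgeR 4.0.16 (R 4.3.3) with a minimum count of 10 and minimum total of 15 left 382 miRNAs, scaled by TMM factors of 0.839 to 1.23. edgeR's robust quasi-likelihood test used 1 model of the 4 groups (4 residual degrees of freedom) for 5 comparisons and an additive model of subset and genotype (5 residual degrees of freedom) for the other 2, at an adjusted p under 0.05. Fold changes in those are first-named over second-named group, with SE taken as the absolute value over the square root of F. DESeq2 1.42.0, other scalings, no filter, a replicate term and left-out libraries were alternatives. The code was tested on simulated data, with recovery of large changes required only at a low set spread. That does not measure power at the spread seen here.

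Wilson intervals at 95% and floors of 3 counts cover counting error only, since the labels name no molecular identifiers. Ratios used an exact permutation test (SciPy 1.17.1). Log2 CPM for likeness used a prior count of 2. The members, lists and tests were chosen with earlier results of these data known. Named miRNAs are the members, their partner arms, the seed relatives and, per tested member, the 5 with the highest Pearson correlation.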

Additional observations from a re-analysis of the deposited data

Results flagged for a closer look

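Of 28 sets of 4 libraries, 4 had a library far from the other 3. The sets were 4 members (in CPM, not logged) and 3 log2 ratios, each over the TN, MP, WT and mCre libraries. The gap, as a share of the whole range, was above Dixon's 95% critical value. Chance gives about 1 in 20 only for separate sets of normally spread values. These sets share libraries and CPM can be skewed, so that rate need not hold. A log2 scale could set other libraries apart and was not tested for the members. miR-15a-5p gave 3 of the 4 flagged sets. In TN the gap was 0.854 of the range, from mCre TN replicate 2 at 360.5 CPM above the others (1.13 to 53.6 CPM). Among the mCre libraries the same library stood 0.93 of the range away. In MP it was WT MP replicate 2 at 132.5 CPM, with a gap of 0.906. The log2 ratio of miR-16-5p to miR-15b-5p gave the fourth, with a gap of 0.841 among the mCre libraries, where mCre TN replicate 1 had 2.13 and the other 3 had 2.35 to 2.39.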

How the results depend on the processing

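Of 490 member fold changes recomputed under an alternative, 447 kept their direction and side of the threshold, 29 reversed and 14 passed it. The causes of these changes were not tested. With total count scaling, MP against TN was -0.0281 for miR-16-5p in WT, and mCre against WT over both subsets was -0.0996 for miR-15a-5p. Taking the largest row of each name gave -0.0374 for miR-16-5p in WT, and pooling members that share reads, chosen after seeing the data like the GC trend, gave -0.0372. Without the low count filter edgeR called 19 miRNAs for MP against TN over both genotypes, 6 in WT, 24 in mCre (1 member, miR-15a-5p, -4.14), 1 for mCre against WT in TN and 10 for the difference of effects. DESeq2 called 28, 12 and 44 for MP against TN over both genotypes, in WT and in mCre, and 16 for the difference, with 1 member, miR-15a-5p, in mCre (-4.07) and in the difference (-5.39).

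Leaving out both TN replicate 2 libraries leaves 1 library in each TN group, assumed to vary like the MP groups, from which the spread of the 4-group model then comes. It gave 49, 14 and 30 calls for MP against TN over both genotypes, in WT and in mCre, 63 for mCre against WT in MP (3 members: miR-15a-5p -2.63, miR-15b-5p -2.15, miR-16-5p -1.84) and 27 over both subsets (2 members: miR-15b-5p -1.74, miR-16-5p -1.59). It turned mCre against WT to -1.95 for miR-15a-5p over both subsets and, in TN, to -0.643, -0.913, -1.10 and -1.17 for miR-15a-5p, miR-15b-5p, miR-16-5p and miR-195a-5p. MP against TN turned to -0.487 for miR-15b-5p and -0.727 for miR-16-5p in WT, and the difference of effects to 0.415 for miR-195a-5p. The log2 ratio of miR-16-5p to miR-15b-5p became 0.0082 for MP against TN and 0.146 for mCre against WT, and that of miR-15b-5p to miR-15b-3p became -0.640 for mCre against WT.

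With 1 library left out, where the lone library of a group is assumed to vary like the other groups, the calls for MP against TN ranged from 0 to 41 over both genotypes (highest without WT TN replicate 2), 0 to 6 in WT and 0 to 56 in mCre (0 to 2 members), and for the difference of effects from 0 to 68 (0 to 2 members; all 3 highest without WT TN replicate 1). In WT, MP against TN ranged from -0.397 to 6.06 for miR-15a-5p, -0.461 to 2.97 for miR-15b-5p, -0.700 to 2.19 for miR-16-5p and -1.31 to 1.24 for miR-195a-5p. In mCre it ranged from -2.82 to -1.70 for miR-15b-5p and -2.72 to -1.46 for miR-16-5p. Over both genotypes it ranged from -2.63 to 0.0534 for miR-15a-5p. The difference of effects ranged from -5.25 to -1.73 for miR-15b-5p and -4.35 to -1.37 for miR-16-5p. For mCre against WT the ranges were -0.364 to 3.0 for miR-15b-5p, -0.402 to 2.42 for miR-16-5p and -0.501 to 1.98 for miR-195a-5p in TN, and -1.34 to 1.32 for miR-15a-5p and -0.643 to 0.0985 for miR-195a-5p over both subsets. The log2 ratio of miR-15b-5p to miR-15b-3p ranged from -0.702 to 0.147 for MP against TN and -0.263 to 0.497 for mCre against WT, where miR-16-5p to miR-15b-5p ranged from -0.109 to 0.159 and miR-16-5p to miR-16-1-3p from -1.0 to 0.183.

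With the replicate number as a block, MP against TN over both genotypes had 2 calls in place of 9, no member was called, and mCre against WT over both subsets was -0.407 for miR-15a-5p. Same-numbered libraries of different groups correlated in their deviations between -0.320 and 0.407. The labels tie them to no shared mouse or batch, and whether they share one cannot be told from these values. With 2 libraries a group, miR-497a-5p at 0 to 3 counts and miR-15a-5p at 2 counts in WT TN replicate 2, depth limits the scarce members most.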
